A study of Mus musculus with 24 samples.

Results

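The natriuretic peptide system of the mouse heart was followed through 8 genes chosen by name: the ligand genes Nppa, Nppb and Nppc, the receptor genes Npr1, Npr2 and Npr3, and the genes of the processing enzymes, Corin and Furin. Every probe whose updated gene symbol was one of these names was taken, which gave 8 probes, 1 for each gene, out of 26423 probes and 17742 genes on the array. Probes named CNP and LRP4 also exist, but these are the symbols of other genes and were not taken as Nppc and Corin. The study used cardiomyocyte-restricted deletion of Hira, which encodes a chaperone that places the histone variant H3.3 into chromatin outside of replication, and asked how its loss changes gene expression in the heart. Both groups carried aMHC-cre Tg/+. Control mice were otherwise Hira flox/+ and Hira CKO mice were Hira flox/-, so that the control animals also expressed Cre and had 1 floxed and 1 intact allele of Hira. All mice were on the C57BL6/J;129S1/SvImJ background, and the methods add a Rosa26 YFP reporter allele. RNA came from the non-scarred free wall of the left ventricle at 6 weeks of age, from 4 control mice (called C1 to C4 here) and 4 Hira CKO mice (K1 to K4), each hybridized to 3 arrays. The replicate was the mouse, whose 3 arrays gave 1 mean. The aMHC promoter drives Cre in cardiomyocytes, and the tissue also holds cells in which Hira was not deleted. In such bulk tissue, fewer cells of a type and less RNA per cell cannot be told apart.

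Nppa and Nppb encode the precursors of atrial natriuretic peptide (ANP) and B-type natriuretic peptide (BNP), which muscle cells of the heart secrete when stretched, and which lower blood pressure and promote salt excretion. Both bind NPR-A, encoded by Npr1, whereas C-type natriuretic peptide (CNP), encoded by Nppc and made mainly outside of cardiomyocytes, binds NPR-B, encoded by Npr2. NPR-A and NPR-B make cyclic GMP, and NPR-C, encoded by Npr3, takes the peptides up and removes them. The ventricle makes much Nppa before birth and little afterwards, and Nppa and Nppb are used as markers of a stressed or hypertrophic ventricle.

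Nppb and Nppa are neighbours on chromosome 4, with no gene between them in the reference gene table, and Nppc is on chromosome 1. The 250 bases before the annotated start are shown for the 3 ligand genes only. They were picked after Nppa and Nppb were seen to rise in Hira CKO hearts and Nppc was not. The sequences are from RefSeq on build GRCm38.p6, and run 5′ to 3′ on the strand of the gene. The Nppa window is chr4:148000472-148000721 (plus strand), the Nppb window is chr4:147985650-147985899 (plus strand) and the Nppc window is chr1:86670574-86670823 (minus strand). Capitals mark matches, on either strand, to any of the TATA box TATAAA, the GATA site GATAA, the T-box element TCACACC, the NK2 site AAGTG, the M-CAT element CATTCC and the CArG box.
Nppa: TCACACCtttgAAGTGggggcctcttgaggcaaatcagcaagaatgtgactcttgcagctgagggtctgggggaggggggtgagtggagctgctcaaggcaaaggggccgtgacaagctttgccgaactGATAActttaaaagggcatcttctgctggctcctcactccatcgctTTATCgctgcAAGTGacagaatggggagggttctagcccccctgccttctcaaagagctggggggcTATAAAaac
Nppb: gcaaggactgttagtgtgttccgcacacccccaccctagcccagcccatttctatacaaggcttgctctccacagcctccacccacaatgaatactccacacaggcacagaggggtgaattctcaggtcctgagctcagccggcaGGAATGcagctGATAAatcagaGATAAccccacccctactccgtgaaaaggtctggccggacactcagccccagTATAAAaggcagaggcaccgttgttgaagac
Nppc: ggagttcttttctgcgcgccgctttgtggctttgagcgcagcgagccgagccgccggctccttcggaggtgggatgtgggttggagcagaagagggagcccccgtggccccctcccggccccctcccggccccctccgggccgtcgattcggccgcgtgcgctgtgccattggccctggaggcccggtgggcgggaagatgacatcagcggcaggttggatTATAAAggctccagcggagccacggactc
The Nppa window held 1 TATAAA, 2 matches to GATAA, 2 to AAGTG and 1 to TCACACC. The Nppb window held 1 TATAAA, 2 matches to GATAA and 1 to CATTCC, on the minus strand. TATAAA was the only one of the 6 motifs in the Nppc window. The GC content was 54.4% for Nppa, 54.8% for Nppb and 69.2% for Nppc. Of the genes not shown, Furin, which did not pass the test below, held 4 matches to AAGTG and 1 TATAAA in 1 of its 2 windows. The windows of Npr1, Npr2, Npr3 and Corin held no match. Among 32851 such windows of the reference, TATAAA occurred in 12.4%, GATAA in 22.6%, AAGTG in 40.7%, TCACACC in 3.33%, CATTCC in 12.6% and the CArG box in 1.47%. A match is a description of the letters and was not tested as a binding site. No link between matches and changes in Hira CKO mice was tested.

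The arrays share a median intensity of 513.2 through the authors' scaling, and the log2 fold changes of all genes had a median of −0.14 in the scaling of the file and −0.02 with quantile normalization. In the limma fit over all 17742 genes, 876 were called higher (4.94%) and 1712 lower (9.65%) in Hira CKO mice at an adjusted p under 0.05, and 1251 higher and 973 lower after quantile normalization. In 7.78% of genes all 4 Hira CKO mice lay above all 4 control mice, and in 15.6% all lay below. The probe of Hira had intensities of 206.9 to 256.3 in control and 168 to 229.9 in Hira CKO mice, and since the sources used here do not place it relative to the deleted part of the gene, it does not check the genotype. Genes listed as markers of ventricular cardiomyocytes, 5 of 9 measured, had a summed intensity of 1020000 to 1164000 in control and 1070000 to 1212000 in Hira CKO mice. This sum rests on the 4 very bright probes of Tnnt2, Actc1, Pln and Tnni3. Whether these 4 mark ventricular rather than atrial muscle was not tested. The fifth gene, Irx4, a ventricular transcription factor gene, fell by 0.63 on the log2 scale (limma adjusted p = 0.0313). Of the 8 natriuretic peptide system genes, 2 were called higher, 0 lower and 6 did not pass. Without adjustment, 3 of the 8 had a p under 0.05, and the median log2 fold change of the 8 was −0.07. An unadjusted p under 0.05 was common on the array. By unadjusted limma p, Nppc (0.0157) ranked 3890th and Corin (0.0569) 6829th of all 17742 genes.

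Nppa rose 3.34-fold in Hira CKO ventricles (95% interval 2.61 to 4.26) and Nppb rose 4.72-fold (2.92 to 7.64), and neither gene's groups overlapped. The Nppa probe had intensities of 94800, 124900, 83850 and 136100 in control mice C1, C2, C3 and C4. In Hira CKO mice K1, K2, K3 and K4 it had 352100, 344100, 375100 and 366400. The lowest Hira CKO mouse was thus well above the highest control mouse, and the Hira CKO mice lay much closer together than the control mice did. The group means were 109900 ± 24600 and 359400 ± 13900 (SD, n = 4 each), and the log2 fold change was 1.74 ± 0.155 (SE, limma adjusted p = 0.000479). The SD of log2 intensity over mice was 0.33 in control and 0.06 in Hira CKO mice. Nppa was near the top of the intensity scale in the Hira CKO mice. Its intensity was 80.1% to 100% of that of the brightest probe of the same array on the 12 Hira CKO arrays, where its rank by intensity was 1 to 10 and it was the brightest probe on 1 array. On the 12 control arrays it was at 18.2% to 38.5%, with a rank of 128 to 358. The part of a ceiling of the scanner in the narrow spread of the Hira CKO mice, or in the size of the fold change, was not tested. This limit also holds where Nppa is compared with other genes below.

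**Figure D1:**
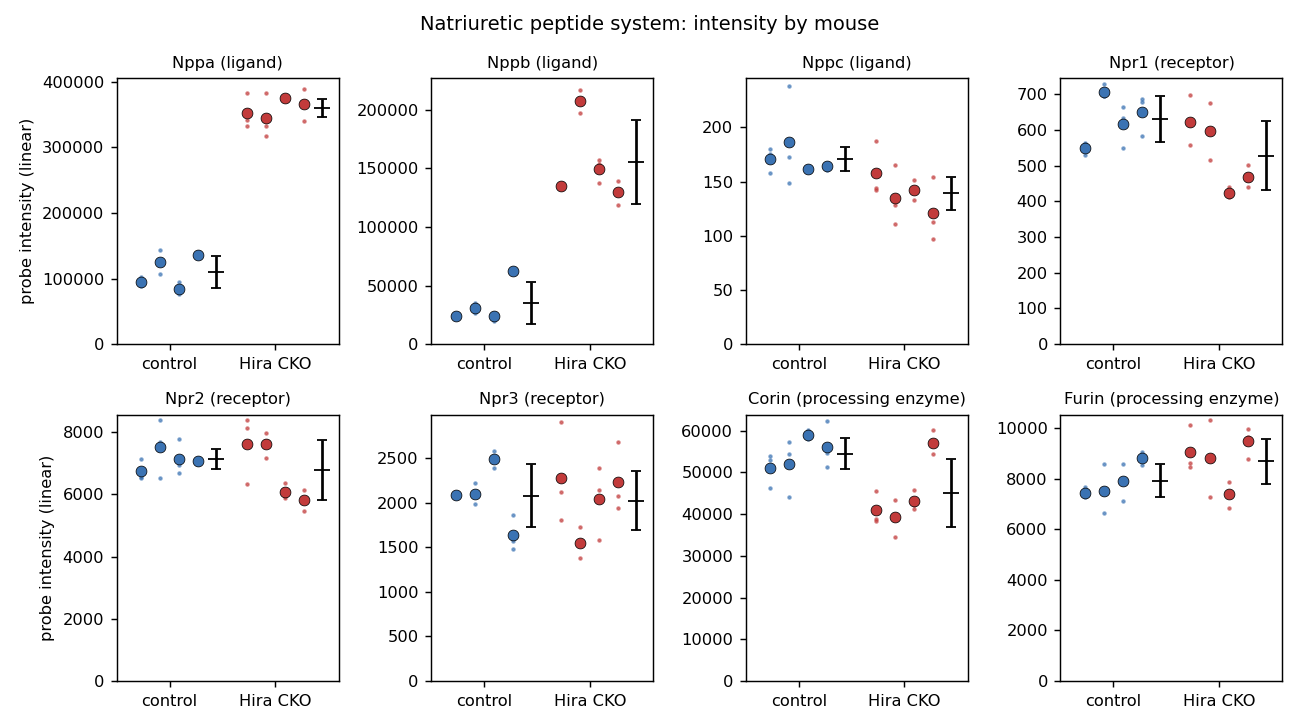
Probe intensity (linear axis from 0) of the 8 genes in control (blue) and Hira CKO (red) mice; large points are the mean of the 3 arrays of a mouse, small points the single arrays, and black bars the group mean ± SD (n = 4 mice), with mice in the order C1, C2, C3, C4 and K1, K2, K3, K4. Nppa and Nppb show separate groups with wide gaps, Nppc a small gap downwards, and the other 5 genes overlapping groups.

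For Nppb the intensities were 24150, 30740, 23840 and 62050 in control mice C1, C2, C3 and C4. Hira CKO mice K1, K2, K3 and K4 had 134600, 207600, 149400 and 129500. Control mouse C4 was thus the highest of its group by a wide margin and still below every Hira CKO mouse. Its 3 arrays gave 61360, 63810 and 60960, so its value did not come from a single array. The group means were 35190 ± 18200 and 155300 ± 35900 (SD, n = 4 each), and the log2 fold change was 2.24 ± 0.306 (SE, limma adjusted p = 0.00353). Without mouse C4 the log2 fold change was 2.55. Nppb stayed clear of the top of the scale, at 27.4% to 58.5% of the brightest probe on Hira CKO arrays and at 4.86% to 15.7% on control arrays.

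Within the control group the 4 mice had the same order for Nppa and Nppb, with C3 lowest, then C1, C2 and C4. For Nppb, however, C3 and C1 were nearly equal, at 23840 and 24150. Among the Hira CKO mice, K2 was lowest for Nppa and highest for Nppb. Their order for Nppa is not resolved, since the SD of its log2 intensity over Hira CKO mice was only 0.06. The SD over the 3 arrays of a mouse had a median of 0.11 for Nppa. The log2 fold change of Nppa minus that of Nppb was −0.50 (95% interval −1.16 to 0.16), and the 2-sided exact permutation test over mice gave p = 0.114 (adjusted over 7 pairs of genes, 0.16). When mouse C4 was left out, the difference was −0.70 and the exact permutation p was 0.0286 without adjustment. The 8 mice allow no p below 0.0286 in this test.

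Nppc did not rise. Its probe was dim, between the 27.8th and the 35.8th percentile of the probes of an array. Its intensities were 171, 186.7, 162.1 and 164.5 in control mice and 157.9, 134.7, 142.6 and 121.2 in Hira CKO mice, in the same order of mice as above. All 4 Hira CKO mice lay below all 4 control mice, as did 15.6% of all genes, by a margin of a few intensity units. The group means were 171.1 ± 11.1 and 139.1 ± 15.3 (SD, n = 4 each). The log2 fold change of −0.31 (95% interval −0.55 to −0.07) had an unadjusted p of 0.0157 and did not pass after adjustment (limma adjusted p = 0.0718). After quantile normalization, which moves the median of all genes to −0.02, it was −0.17, and without Hira CKO mouse K1 it was −0.38 and passed (limma adjusted p = 0.0312). The fit without K1 called 3568 of all genes lower, beside 1712 in the main fit, so this pass is not particular to Nppc. The difference in log2 fold change was 2.05 between Nppa and Nppc (95% interval 1.61 to 2.49) and 2.55 between Nppb and Nppc (1.62 to 3.48). Both had the smallest possible exact permutation p of 0.0286, which became 0.0667 after adjustment over the 7 pairs.

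**Figure D2:**
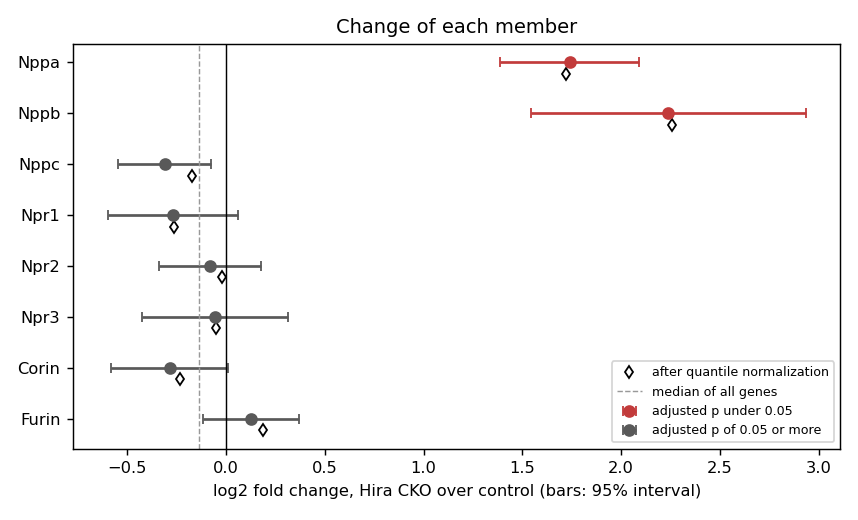
Log2 fold change of Hira CKO over control for the 8 genes (circles, 95% interval; red for an adjusted p under 0.05), with the value after quantile normalization (diamonds) and the median of all genes as deposited (dashed line, −0.14). Nppa and Nppb stand at 1.74 and 2.24, and the other 6 lie between −0.31 and 0.13.

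None of the 3 receptor genes passed the test. Npr1, the receptor gene for ANP and BNP, had a modest level on this array, with intensities of 550.5, 706, 615.2 and 648.8 in control mice C1, C2, C3 and C4. In Hira CKO mice K1, K2, K3 and K4 they were 622.9, 597.4, 424.2 and 468. The first pair of Hira CKO mice lay within the control range and the second pair below it. The means of 630.1 ± 65 and 528.1 ± 97 (SD, n = 4 each) gave a log2 fold change of −0.27 (95% interval −0.60 to 0.06, limma adjusted p = 0.204).

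Npr2, the receptor gene for CNP, had intensities of 6748, 7534, 7136 and 7073 in control and 7614, 7618, 6065 and 5809 in Hira CKO mice. The same Hira CKO mice, K3 and K4, were low here as for Npr1, and mice K1 and K2 were slightly above the highest control mouse. The mean was 7123 ± 322 in control and 6776 ± 975 in Hira CKO mice (SD, n = 4 each), with a log2 fold change of −0.08 (95% interval −0.34 to 0.18, limma adjusted p = 0.624). Mice K3 and K4 did not stand out in the same way for Nppa and Nppb. For Nppa the Hira CKO mice differed by less than the arrays of a mouse did, and K4 was the lowest Hira CKO mouse for Nppb.

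Npr3, the clearance receptor gene, had 2090, 2098, 2492 and 1639 in control and 2276, 1545, 2038 and 2234 in Hira CKO mice. The groups overlapped almost entirely, with means of 2080 ± 348 and 2023 ± 335 (SD, n = 4 each). The log2 fold change was −0.06, and its 95% interval of −0.42 to 0.31 still allows a change of that size in either direction (limma adjusted p = 0.828). The lowest Hira CKO mouse for this gene, K2, was the one with the highest Nppb, and the lowest control mouse, C4, was the control mouse with the highest Nppb. This was seen after the values were known and has no test. Mice C4 and K2 have neighbouring numbers in the labels. The log2 fold change of Npr1 minus that of Npr2 was −0.19 (95% interval −0.36 to −0.02), with an exact permutation p of 0.0571 and of 0.1 after adjustment over the pairs. The differences between Npr3 and each of the other receptor genes had exact permutation p-values of 0.429 for Npr1 (difference −0.21, 95% interval −0.85 to 0.42) and 0.886 for Npr2 (−0.03, −0.60 to 0.55).

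Corin, the cardiomyocyte membrane protease that cuts pro-ANP to its active form, was bright on these arrays, and its groups overlapped through a single mouse. Control mice had 51060, 51960, 59010 and 56150, and Hira CKO mice K1, K2, K3 and K4 had 41020, 39280, 43070 and 57160. The first 3 of these were below all control mice, and mouse K4 was within the control range. The means were 54540 ± 3710 and 45130 ± 8170 (SD, n = 4 each), and the log2 fold change of −0.29 did not pass (95% interval −0.58 to 0.01, limma adjusted p = 0.148). Without mouse K4 the log2 fold change was −0.41 and passed (limma adjusted p = 0.044), so that 1 mouse decided the call.

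Furin, the convertase that cuts pro-BNP and pro-CNP, had 7455, 7533, 7901 and 8847 in control and 9072, 8811, 7397 and 9482 in Hira CKO mice. The Hira CKO group held both the highest and the lowest of the 8 values. Means were 7934 ± 639 and 8691 ± 905 (SD, n = 4 each), and the log2 fold change of 0.13 had a 95% interval of −0.12 to 0.37 (limma adjusted p = 0.415). The log2 fold change of Corin minus that of Furin was −0.41 (95% interval −0.72 to −0.11), with the smallest possible exact permutation p of 0.0286 and an adjusted p of 0.0667.

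**Figure D3:**
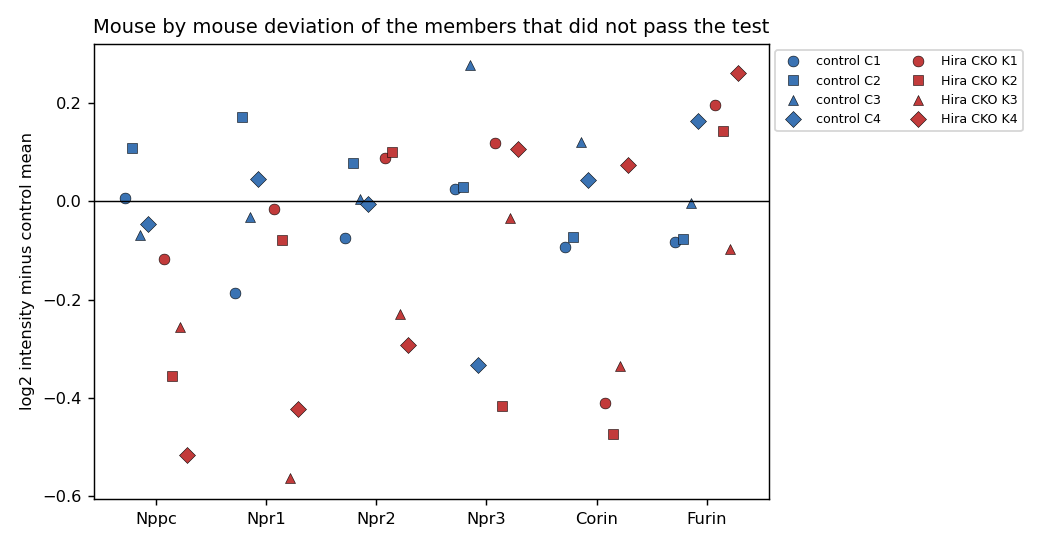
Log2 intensity of the 6 genes that did not pass the test, as the difference from the control mean (y axis), for each of the 4 control (blue) and 4 Hira CKO (red) mice, a symbol shape for each mouse within its group. Npr1 and Npr2 are both low in Hira CKO mice K3 and K4, and Corin is low in the other 3 Hira CKO mice but not in K4.

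Other genes of the pathway were called in shares near those of all genes, which are given below. Of 35 listed genes for making, sensing and breaking down cyclic GMP, for peptide clearance and for peptide processing, 31 were measured. In this list 2 were called higher, 2 lower and 27 did not pass, with a median log2 fold change of −0.04 beside −0.14 for all genes. At an unadjusted p under 0.05, 3 were higher and 9 lower. The median was −0.21 among the 14 measured genes that make, sense or break down cyclic GMP, 6 of which were lower at that unadjusted threshold. The shares called on the whole array at an adjusted p under 0.05 were 4.94% higher and 9.65% lower. These shares do not apply to the unadjusted counts, since an unadjusted p under 0.05 was common among all genes. An unadjusted limma p of 0.0569 ranked only 6829th of all 17742 genes. The share of all genes at the unadjusted threshold was not counted by direction, so the 9 lower genes are not read as an excess. Both genes called higher encode calcium and calmodulin dependent phosphodiesterases, which break down cyclic nucleotides. Pde1c had 4565, 5510, 5092 and 5831 in control and 7924, 8113, 7901 and 10220 in Hira CKO mice, with no overlap. It rose by 0.69 ± 0.123 on the log2 scale (SE, limma adjusted p = 0.0108) and kept this call with any 1 mouse left out, but not as the mean of all its probes (adjusted p = 0.0901). Pde1b rose from 2885 ± 329 to 4016 ± 511 (SD, n = 4 each), by 0.47 on the log2 scale (limma adjusted p = 0.0435), while the third gene of this family, Pde1a, had −0.03 (limma adjusted p = 0.867). Pde1b kept its call in only 1 of 8 fits with 1 mouse left out (that without K2).

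Of the genes called lower, Prkg2 encodes a cyclic GMP dependent kinase and Ide encodes insulin-degrading enzyme, a protease that also cuts natriuretic peptides. Prkg2 was dim, with 111.4 to 152.3 in control and 45.45 to 73.63 in Hira CKO mice, and fell by 0.98 on the log2 scale (limma adjusted p = 0.0122). With an offset of 50 before the log it fell by 0.62 and was still called, whereas after cyclic loess normalization (−0.62, 0.0609) and without the arrays numbered 3 (−0.85, 0.0849) it was not. Ide fell from 14300 ± 1920 to 9098 ± 2540 (SD, n = 4 each), by 0.68 on the log2 scale (limma adjusted p = 0.0485), and Hira CKO mouse K3, at 12540, overlapped with control mouse C3, at 11430. Ide kept its call in 1 of 8 fits with 1 mouse left out, that without K3, and lost it after quantile normalization. Of the 12 convertase and secretory granule genes none passed the limma test, and 2 had an unadjusted p under 0.05. These were Pcsk6, the gene of a convertase known to activate corin, and the dim Pcsk2, whose log2 fold change was −0.58 (limma adjusted p = 0.0609) and −0.15 after quantile normalization (0.383). The intensities of Pcsk6 were 35650, 27990, 27340 and 27730 in control and 16360, 24950, 23170 and 18730 in Hira CKO mice, with no overlap between the groups. Its log2 fold change was −0.53 ± 0.158 (SE, limma adjusted p = 0.0532).

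**Figure D4:**
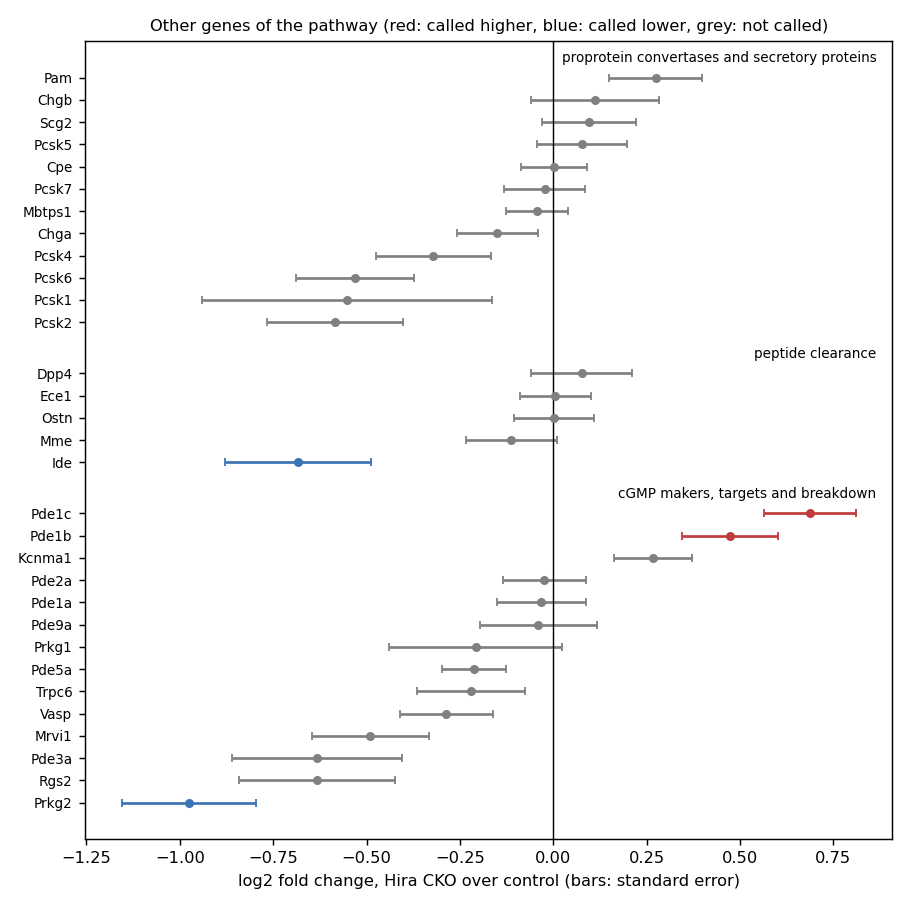
Log2 fold change of Hira CKO over control (x axis, bars ± SE) for the 31 measured pathway genes in 3 classes, ordered by value within a class. Pde1c and Pde1b (red) were called higher, Prkg2 and Ide (blue) lower, and the remaining 27 (grey) did not pass.

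Transcription factors and cofactors known to act on Nppa or Nppb were listed as 32 genes, of which 25 were measured, and Nkx2-5, Mef2a and Myocd were among those with no probe under their name here. None was called higher, 2 were called lower and 23 did not pass (3 higher and 7 lower at an unadjusted p under 0.05), with a median log2 fold change of −0.18 beside −0.14 for all genes. Of all genes, 4.94% were called higher and 9.65% lower at an adjusted p under 0.05. An unadjusted p under 0.05 was common among them, as given above. The genes called lower in the list were Tead1, whose protein binds the M-CAT element, and Tbx5, whose protein binds T-box sites. Tead1 had 49400, 47750, 53120 and 53910 in control and 34500, 37580, 39520 and 37310 in Hira CKO mice and fell by 0.46 on the log2 scale (limma adjusted p = 0.0133). Tbx5 ranged from 15560 to 21630 in control and from 9111 to 12640 in Hira CKO mice and fell by 0.72 (limma adjusted p = 0.0155). The groups did not overlap for either gene, and both calls held under all 22 alternative fits.

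Genes that often change together with Nppa and Nppb in a stressed ventricle were listed as 16 genes, with 13 measured and Myh6, Myh7 and Myc not named on the array as annotated here. In this list 4 genes were called higher and none lower (0 also at an unadjusted p under 0.05), while 4.94% of all genes were called higher and 9.65% lower. The median log2 fold change was 0.61, beside −0.14 for all genes. The list includes Fhl1 at 0.86 ± 1.05 (SE), although its mean intensity was lower in Hira CKO mice, at 44020, than in control mice, at 54560. Some genes of the list are known as changed in these samples from earlier results, so the list is not independent of them. Ankrd1, a cardiac stress-responsive ankyrin repeat protein, had 54450, 52010, 48290 and 53000 in control and 150300, 157100, 210300 and 139900 in Hira CKO mice. It rose by 1.64 on the log2 scale (limma adjusted p = 0.000304), close to the 1.74 of Nppa, without the wide control spread of Nppb. Rcan1, a calcineurin regulator whose transcription calcineurin signalling raises, had 12600, 13770, 13840 and 29710 in control and 30820, 55280, 33880 and 33850 in Hira CKO mice. Control mouse C4 and Hira CKO mouse K2 were the highest of their groups, as they were for Nppb, and Rcan1 rose by 1.19 (limma adjusted p = 0.0328). Mice C4 and K2 have neighbouring numbers in the labels, which do not say whether such mice are paired. The metallothionein gene Mt2 rose by 1.08 (limma adjusted p = 0.0202) and Ccn2, a matricellular protein gene, by 0.88 (limma adjusted p = 0.0163). With 1 mouse left out at a time, Ankrd1 kept its call in 8 of 8 fits, Ccn2 in 7, Mt2 in 6 and Rcan1 in 2 (without C4 or without K1). Without control mouse C3 Ankrd1 alone was called in this list.

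Profiles most like those of Nppa and Nppb were found by the root mean square difference of log2 intensity over the 8 mice, after each gene was centred on its control mean, among 16527 genes. This is a description with no test, and it picks genes with a like difference between groups. Nearest to Nppa were Fst, which encodes the activin-binding protein follistatin (0.18), Bdkrb1, which encodes a bradykinin receptor (0.22), and Ttc39a (0.23). Fst rose from 111.5 ± 9.49 to 389 ± 31.7 and Bdkrb1 from 139.4 ± 21.6 to 524.9 ± 89.7 (SD, n = 4 each), with limma adjusted p-values of 2.48e-05 and 0.000316. Their log2 fold changes were 1.82 and 1.95. Nearest to Nppb were Lman1l (0.16), which encodes a lectin-like transport protein, Otx1 (0.29), a homeobox gene, and Ankrd45 (0.38). Lman1l rose from 265.5 ± 130 to 1145 ± 462 (SD, n = 4 each, limma adjusted p = 0.00668). Nppa was only the 15th gene in likeness to Nppb, and Nppb the 75th in likeness to Nppa, at a difference of 0.48.

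Beside the Nppb and Nppa pair on chromosome 4, 1 neighbour was also called higher. Clcn6, a gene for a chloride transporter of late endosomes and the next gene after Nppa, had 581, 489.3, 415.6 and 362.7 in control and 1006, 957, 739.3 and 948.5 in Hira CKO mice. The groups did not overlap, and Clcn6 rose by 0.99 on the log2 scale (95% interval 0.62 to 1.37, limma adjusted p = 0.00798), a call that held under all 22 alternative fits. Among the control mice, C4 had the highest Nppa and Nppb but the lowest Clcn6. On the other side, 2510039O18Rik, next to Nppb, had a log2 fold change of 0.15 (limma adjusted p = 0.346) and Plod1, a lysyl hydroxylase gene, 0.04 (limma adjusted p = 0.791). Agtrap, the gene of an angiotensin receptor-associated protein and the next measured gene after Clcn6, with 5 genes between it and Nppa, had 0.27 (limma adjusted p = 0.0713).

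Adult atrial muscle is rich in Nppa, so atrial markers are given beside its rise. Of 10 atrial markers, 7 were measured, with Myl7 and Myl4 among those not named on the array as annotated here. Their summed intensity was 25700 to 32390 in control and 19450 to 26860 in Hira CKO mice, with 1 gene called higher (Dkk3, by 1.06, limma adjusted p = 0.0227, kept in 4 of 8 fits with 1 mouse left out) and 1 lower (Tbx5, above). Tbx5 made up the largest part of this sum, with a mean of 17590 in control and 10730 in Hira CKO mice. Bmp10, whose product is made by atrial muscle, was low in both groups, at 158.2 to 199.6 in control and 108.2 to 180.3 in Hira CKO mice. Sln, the atrial calcium pump regulator sarcolipin, varied widely between mice of both groups, with 350.4, 135.3, 1577 and 231 in control and 5133, 132.4, 379.7 and 1746 in Hira CKO mice. The part of atrial tissue in the values of Nppa and Nppb was not tested.

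Markers of the other cell types of the tissue moved as follows. Endothelial and endocardial markers, 9 measured and none called, summed to 217700 to 240000 in control and 196800 to 209000 in Hira CKO mice, a sum of which Plvap made up the largest part. Their median log2 fold change was −0.15, beside −0.14 for all genes. At an unadjusted limma p under 0.05, which was common among all genes, 0 were higher and 2 lower. These were Pecam1 (−0.38, limma adjusted p = 0.0618) and Kdr (−0.39, 0.0873). Smooth muscle and pericyte markers, 7 measured summed to 151100 to 194300 in control and 198700 to 265800 in Hira CKO mice. This higher sum was that of Acta2, which rose from a mean of 87870 to 161100 (log2 fold change 0.87, limma adjusted p = 0.0166). The paper reports the protein of this gene, smooth-muscle α-actin, in cardiomyocytes of Hira CKO hearts. Which cells gave the rise of Acta2 RNA was not tested. The other 6 of these markers did not pass and had log2 fold changes of −0.85 (Cnn1) to −0.19 (Pdgfrb), and the median of the 7 was −0.38. Epicardial markers, 5 measured with Upk3b and Upk1b called lower, summed to 9534 to 11380 and 6204 to 7770. For fibroblast markers (8 measured, none called) the sums were 255100 to 274200 and 245000 to 295900. At an unadjusted limma p under 0.05, 2 of them were higher, Col1a2 (0.51, limma adjusted p = 0.106) and Postn (0.49, 0.0918), and 1 was lower. The sums were 43730 to 75400 and 38060 to 62960 for myeloid markers (6 measured, Cd68 called higher). For conduction system markers (9 measured, the dim Hcn4 called lower) they were 24490 to 27280 and 23400 to 24980. The part of these shifts in the values of Nppc, the receptor genes and the processing enzymes was not tested.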

How the data were processed

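The authors extracted total RNA with TRIzol, hybridized each RNA to 3 MouseOne Array Plus v2.1 arrays and scaled raw intensity to the median. The deposited table holds linear probe intensity values. Some values are negative, so a background was subtracted, by a method not given in the sources used here, nor is a detection call or a genome build, so the precision of dim probes is limited.

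Intensities under 1 (0 to 2535 probes of an array) were raised to 1, log2 transformed and averaged over the 3 arrays of a mouse. Probe names were updated through the GRCm38.p6 gene table (18213 were official symbols, 2126 synonyms, 38 fitted several genes and kept their name). In all, 20377 probes carried 1 symbol, and the 6046 others were not used. For a gene with several probes the probe with the highest mean was used. Groups were compared with lmFit and eBayes of limma 3.58.1 (R 4.3.3) over all genes, 4 mice against 4, with Benjamini-Hochberg adjustment and a threshold of 0.05. The limma step was tested on simulated data with known changes. Intervals of single genes are 95% intervals of that fit. Pairs of genes were compared with 2-sided exact permutation tests over mice, adjusted with scipy 1.17.1. The 95% intervals of these differences are t intervals from the spread within the groups, so an interval and its permutation p can differ. Means ± SD are of linear intensities over mice, and fold changes are of log2 means. Levels of different probes were not tested against each other, and sums over probes, ranks and percents of the brightest probe are descriptions. Lists without a probe for a gene under its name were tested on the rest (in the pathway list Gucy1a1, Gucy1a2, Gucy1b1 and Pde3b were lacking).

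The members and lists were chosen with earlier results of these data known. Named are all 8 members, for each list up to 4 called genes, those of smallest p (2 genes if none was called), 3 genes nearest in profile to Nppa and to Nppb, and 2 measured neighbours on each side of that pair. Pde1a, Bmp10, Sln, Cnn1, Pdgfrb, Plvap, Fhl1, Tnnt2, Actc1, Pln and Tnni3 were named after their values were seen. As alternatives, an offset of 50, normalization by quantiles or cyclic loess, genes under an intensity of 100 left out, all probes averaged or tested singly, an intensity trend with robust prior, the methods' t-test and thresholds, blocks, and each mouse or array number left out were run. Of the tables deposited, no column lacked a sample. The paper's supplementary tables were not used here.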

Additional observations from a re-analysis of the deposited data

How the results depend on the processing

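Nppa and Nppb passed the threshold under every alternative run, with log2 fold changes of 1.62 to 1.85 and 2.09 to 2.55 and limma adjusted p-values of at most 0.00737 and 0.0214, the latter from the methods' t-test. Npr1, Npr2 and Furin passed under none. The precision is limited by 4 mice a group and, for dim probes such as Nppc and Prkg2, by an unstated background step. Nppc did not pass as deposited, and its log2 fold change of −0.31 passed at an adjusted p threshold of 0.1 (adjusted p = 0.0718). Corin, at −0.29, passed with the mouse as a random block (adjusted p = 0.0405) and with the array number as a replicate block beside it (0.0434), so that 1 natriuretic peptide gene, Corin, was then called lower. At the threshold of 0.1 it was 1 gene too, Nppc. Npr3 changed sign without the arrays numbered 2 (0.0117), and the difference between Npr2 and Npr3 after quantile normalization (0.0268); neither passed a test. Nor did Pde1a, which changed sign without the arrays numbered 1 (0.0486), or Plod1, without those numbered 3 (−0.0326).

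Neighbouring mouse numbers of the labels fall in opposite groups. The correlations of the deviations of such neighbours were −0.02 (C2 and K1), 0.25 (C4 and K2), 0.04 (C3 and K3) and 0.24 (C1 and K4). Arrays of the same number in different mice had a median correlation of −0.04. The labels do not say whether neighbouring numbers pair the mice, which was not tested, and the main fit used no pairing. With neighbouring numbers as a replicate block 831 genes were called higher and 1971 lower, beside 876 and 1712. The genes called lower numbered 973 after quantile and 866 after cyclic loess normalization, 985 with the methods' t-test and 978 without the arrays numbered 2. Those called higher numbered 1454 with the mouse as a random block and 1415 with the array number as a replicate block. Without the arrays numbered 3 there were 481 higher and 597 lower, at a threshold of 0.01 283 and 260, at 0.1 1422 and 3718, and at the methods' thresholds 181 and 687. Higher calls then numbered 1251 after quantile and 1267 after cyclic loess normalization.

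The pathway list had 1 gene called lower after quantile normalization, with every probe tested singly, with the t-test and without the arrays numbered 1 or 2, 0 after cyclic loess normalization and without the arrays numbered 3, 5 with the offset, 4 with the trend, 8 with the random block and with the array number as a replicate block, and 7 at 0.1. It had 1 called higher with probes averaged, with the t-test, with neighbouring numbers as a block and without the arrays numbered 2 or 3. At 0.01 and at the methods' thresholds it had 0 either way. The regulator list had 1 called higher after quantile and cyclic loess normalization, in both random block fits and at 0.1, and 5, 5 and 6 called lower in the last 3 of these, but 0 at 0.01 and at the methods' thresholds. The hypertrophy list had 2 called higher with the t-test, 8 and 7 in the random block fits and 1 at 0.01, and 1 called lower without the arrays numbered 1.

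With 1 mouse left out at a time, log2 fold changes ranged from 1.62 to 1.85 for Nppa, 2.09 to 2.55 for Nppb, −0.38 to −0.24 for Nppc, −0.36 to −0.17 for Npr1, −0.14 to −0.01 for Npr2, −0.167 to 0.0643 for Npr3, −0.41 to −0.22 for Corin and 0.08 to 0.20 for Furin. Nppc passed without Hira CKO mouse K1 (−0.38, adjusted p = 0.0312) and Corin without Hira CKO mouse K4. Npr3 was above 0 without control mouse C3 and without Hira CKO mouse K2. Between 0 and 1 natriuretic peptide gene was called lower and 2 higher. Among all genes 434 (without control mouse C3) to 916 were called higher and 503 (without the same mouse) to 3568 (without Hira CKO mouse K1) lower. Every other mouse left out gave 772 to 922 genes called lower. The pathway list had 1 to 2 called higher and 1 to 3 lower, the regulator list 0 to 1 and 2 to 3, and the hypertrophy list 1 (without control mouse C3) to 4 higher. Differences between log2 fold changes ranged from −0.70 to −0.33 for Nppa and Nppb and from −0.21 to 0.10 for Npr2 and Npr3. Corin and Furin differed by −0.49 to −0.34. With 1 mouse left out Pde1a ranged from −0.105 to 0.0616 and Plod1 from −0.0304 to 0.0989. The cause of these shifts was not tested.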
